A study of Danio rerio with 7 samples.

Results

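Genes for pre-mRNA splicing factors and nuclear RNA-binding proteins were taken by symbol: all genes on the array whose zebrafish symbol begins with srsf, snrp, sf3a, sf3b, prpf, hnrnp, hnrp, u2af or lsm followed by a digit. This gave 74 genes of the 11484 named genes on the array, out of 93 genes with such symbols in the gene table used for naming. They were carried by 111 probes, and each gene was represented by its probe with the highest mean Cy5 signal. By symbol they fell into 15 SR protein genes, 11 genes for Sm and U1/U2 snRNP proteins, 8 for the SF3A and SF3B complexes, 12 PRP factor genes, 16 hnRNP protein genes, 3 U2AF genes and 9 LSM genes. The rule reads symbols, with the Cy5 signal used for the choice of probe, and it was set with earlier results of these data known.

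The RNA came from 7 adult zebrafish that were each homogenised whole. They were full sibs of a hybrid strain, for which the labels name AB as one parent and leave the other unknown. Fish 4, 7, 8 and 9 were labelled female and fish 5, 8 and 9 were labelled male, and the shared numbers name different animals. Each fish was labelled with Cy5 and hybridised to 1 Agilent array against a common hybrid reference in Cy3, with no dye swap, so a value is a log2 ratio of fish over reference and only differences between fish are free of a constant dye effect. Per the series design, the siblings served to relate expression to genotype; genotypes were not analysed here.

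Splicing removes introns from pre-mRNA in the spliceosome, which is built from small nuclear RNAs in protein particles (snRNPs). Sm proteins form the ring around most of these RNAs, U2AF and SF3A/SF3B proteins act at the branch site and the end of the intron, and PRP factors join the U4/U6.U5 particle or drive the catalytic steps. SR proteins mostly promote the use of exons they bind, many hnRNP proteins package or silence, and both shape alternative splicing in every tissue. LSM proteins form rings on U6 RNA or on decaying mRNA, while the products of the lsm12 and lsm14 genes are known as cytoplasmic mRNA regulators and not as spliceosome parts, so the symbols take in a few genes beyond splicing.

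Several features of the arrays bear on all values below. The file headers place the arrays in 3 scan sessions: females 7 and 9 with male 9 in session 1, male 8 alone in session 2, and females 4 and 8 with male 5 in session 3. The share of probes with Cy5 well above background was 29.7 to 33.7% in session 3 and 45.8 to 65.2% in the other arrays. The reference channel, which should hold the same RNA everywhere, correlated at 0.997 to 0.999 between arrays of a session and at 0.896 to 0.972 between sessions (log2 signal quantile-normalized across arrays, 9489 probes). The headers also give the same slide and array position to 3 pairs of arrays from sessions 1 and 3, namely females 4 and 7, female 9 and male 5, and female 8 and male 9. Spots marked as non-uniform on both arrays of a pair numbered 4 in female 8 and male 9, 1 in female 9 and male 5, and 0 in females 4 and 7 and in the 18 other pairs. The library labelled male 5 did not match its label by markers: the 23 measured egg coat and oocyte genes took 2.21% of its total Cy5 signal, against 1.80 to 2.24% in the 4 females and 0.0810 and 0.157% in males 8 and 9. Each comparison is therefore given with and without that library, which was set aside with this result known.

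The splicing factor genes were well measured in all fish. Of the 74 genes, 73 were tested, meaning that 3 or more arrays of the 7 showed Cy5 well above background, and 69 were above background on all 7. The untested gene was u2af2a, which codes for a copy of the large U2AF subunit that reads the polypyrimidine tract and was above background only in females 7 and 9. Together the 74 probes took 0.963, 0.856, 1.05 and 0.845% of the total Cy5 signal in females 4, 7, 8 and 9, 1.13% in the library labelled male 5, and 0.385 and 0.368% in males 8 and 9. Males 8 and 9 thus lay below all 4 females, and the library labelled male 5 above them. Without hnrnpk, by far the brightest probe, the females ranged from 0.612 to 0.792% and males 8 and 9 were at 0.381 and 0.352%. The 15 SR protein probes alone took 0.104 to 0.145% in the females and 0.139 and 0.118% in males 8 and 9, where the groups overlapped.

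In the ratios to the reference, most families were lower in males 8 and 9 and the SR protein genes were higher there. The median log2 ratio of the 73 genes was -0.44, -0.10, -0.45 and -0.03 in females 4, 7, 8 and 9, -0.39 in the library labelled male 5, and -1.19 and -0.83 in males 8 and 9. The medians of all named genes on these arrays lay between -0.13 and 0.04. For the SR protein genes the order was the opposite, with medians of -0.13, 0.09, -0.41 and 0.33 in the females, -0.25 in the library labelled male 5, and 1.06 and 0.66 in males 8 and 9. The Sm and U1/U2 snRNP genes had medians of -0.55 to -0.10 in the females and of -1.66 and -1.50 in males 8 and 9. The hnRNP genes showed little shift of their median, at -0.47 to 0.07 in the females and -0.46 and -0.28 in males 8 and 9, while single members lay far apart.

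**Figure D1:**
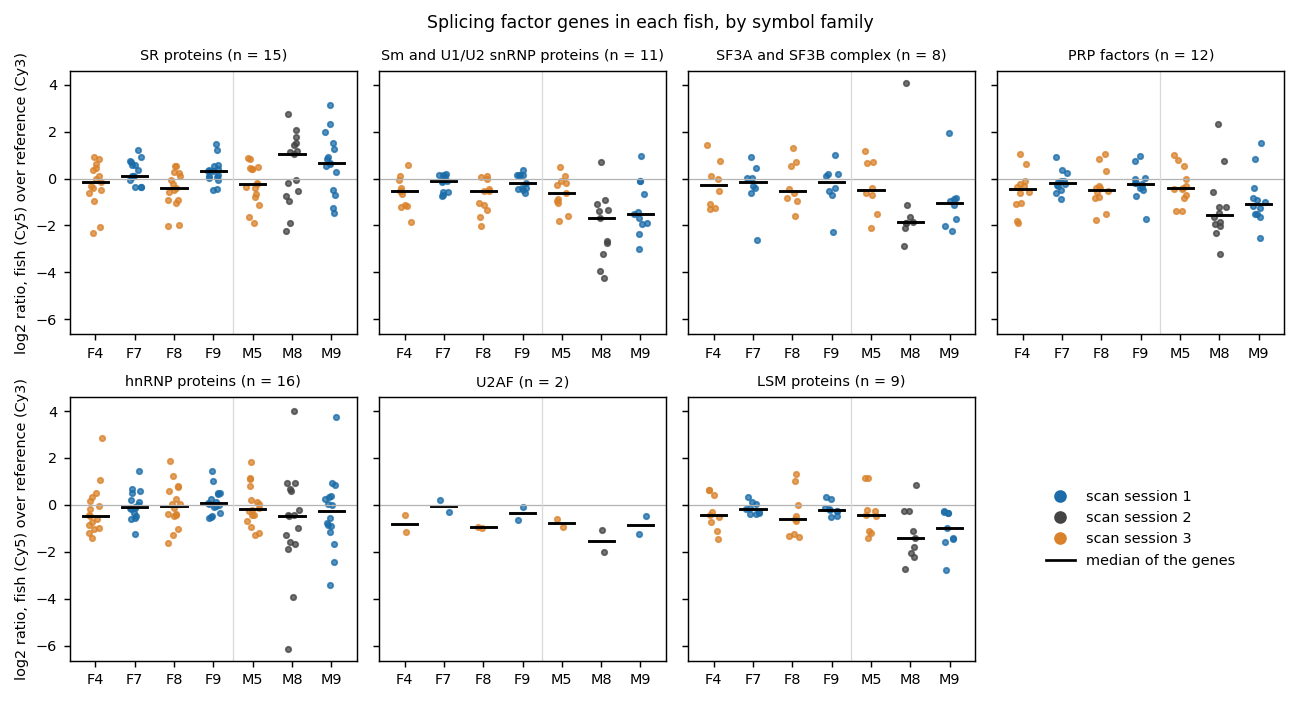
Log2 ratio of fish over reference for each tested gene (points) in each fish (F, labelled female; M, labelled male), by symbol family, with the median as a black bar and points coloured by scan session. In males 8 and 9 the SR medians lie at 1.06 and 0.66, above all females, and the Sm and U1/U2 snRNP medians at -1.66 and -1.50, below all females, while the library labelled male 5 lies with the females.

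The first comparison set the 4 females against all 3 fish labelled male. No gene of the set passed an adjusted p of 0.05 (limma, Benjamini-Hochberg over 22705 tested probes), and neither did any other probe (0% called). The smallest adjusted p among the genes was 0.539. At an unadjusted p under 0.05, 12 of 73 genes would be counted, beside 6.72% of all probes and 9.5% of all named genes. Of these, 10 were higher in females (5.14% of all probes) and 2 in males (1.58% of all probes). The median difference, females minus males, was 0.39 for the 73 genes on the log2 scale, against -0.02 for all probes and 0.05 for all named genes. In 3 genes every female lay above every fish labelled male, and in 1 every female lay below, beside 1.92% and 1.78% of all probes. Without the library labelled male 5 the number of calls became 38, as described next.

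The 4 genes that kept the labelled sexes apart in all 7 fish on the chosen probe were prpf18, hnrnpaba, lsm7 and hnrnph1. The gene prpf18 codes for a factor of the second catalytic step, and its log2 ratios were -0.56, -0.11, -0.77 and -0.38 in females 4, 7, 8 and 9, -0.83 in the library labelled male 5, and -1.65 and -1.49 in males 8 and 9. Its difference over 7 fish was 0.87 ± 0.26 (log2, SE; adjusted p = 0.539, limma), and the gap between the lowest female and the highest male was small. The gene hnrnph1, whose product binds runs of guanines, had log2 ratios of -0.17, -0.14, -0.41 and -0.36 in females 4, 7, 8 and 9, -0.13 in the library labelled male 5, and 0.67 and 0.95 in males 8 and 9. All 4 females were below all 3 males, with a difference of -0.76 ± 0.27 (log2, SE; adjusted p = 0.539, limma), but the library labelled male 5 lay next to the females. For hnrnpaba, a gene for an A/B type hnRNP, and lsm7, a subunit shared by both LSM rings, the differences over 7 fish were 0.71 (adjusted p = 0.539, limma) and 0.35 (adjusted p = 0.539, limma). The second probes of hnrnpaba and lsm7 did not keep the labelled sexes apart. On these the library labelled male 5, at 0.08 and -0.14, lay within the range of the females.

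The second comparison set the 4 females against males 8 and 9. Of the 73 genes, 38 were called at an adjusted p of 0.05 (limma), 28 higher in females and 10 higher in males. Over all probes, 25.4% were called, 13.2% higher in females and 12.1% higher in males. Over all named genes, 30.8% were called, 19% higher in females and 11.8% higher in males. The set's share called higher in females, 38.4%, was thus above both backgrounds, and its share called higher in males, 13.7%, was close to them. The median difference was 0.52 on the log2 scale for the set, -0.05 for all probes and 0.06 for all named genes, so the set lay 0.46 above the named genes. Among probes with Cy5 above background on all arrays used, the median of all named genes was 0.23. The set lay only 0.27 above that. A difference of at least 2-fold was seen in 21 of the genes called higher in females and in 9 of those called higher in males. The share of all named genes with such a difference was not counted. Every female lay above both males in 36 of the 73 genes, beside 23.6% of all probes and 30.7% of all named genes. In 13 genes every female lay below both, beside 25.2% and 22.7%. With 2 males, these p-values rest on few animals: without male 8 the number of genes called was 16 (13 and 3), beside 15.1% of all probes.

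Calls also moved with the way the channels were made comparable. With median centring in place of loess within arrays, 6 genes were called, all higher in females, and the median difference of the set became 1.67. Of all probes 3.11% were called there, and of all named genes 4.45%, most of them higher in females too (4.28%). Median centring also moved all named genes, to a median difference of 0.60, so relative to them the set lay 1.06 higher. With the processed signals of the scanner software, 33 genes were called higher in females and 6 in males, beside 41.6% of all probes and 46.3% of all named genes. With scan session as a block, 29 genes were called (21 and 8), beside 20.2% of all probes, and 23 of them were among the 38. With array position as a block, an alternative chosen after seeing the data, 9 genes were called (6 and 3), beside 10.2% of all probes, and all 9 were among the 38: lsm14b, prpf4, sf3b2, snrpa, hnrnpub, srsf10b, srsf1b, srsf5a and srsf5b. The other calls were lost with position as a block. Of all named genes 12.2% were called there, and the share of the set was close to that. That fit rests on 1 female.

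**Figure D2:**
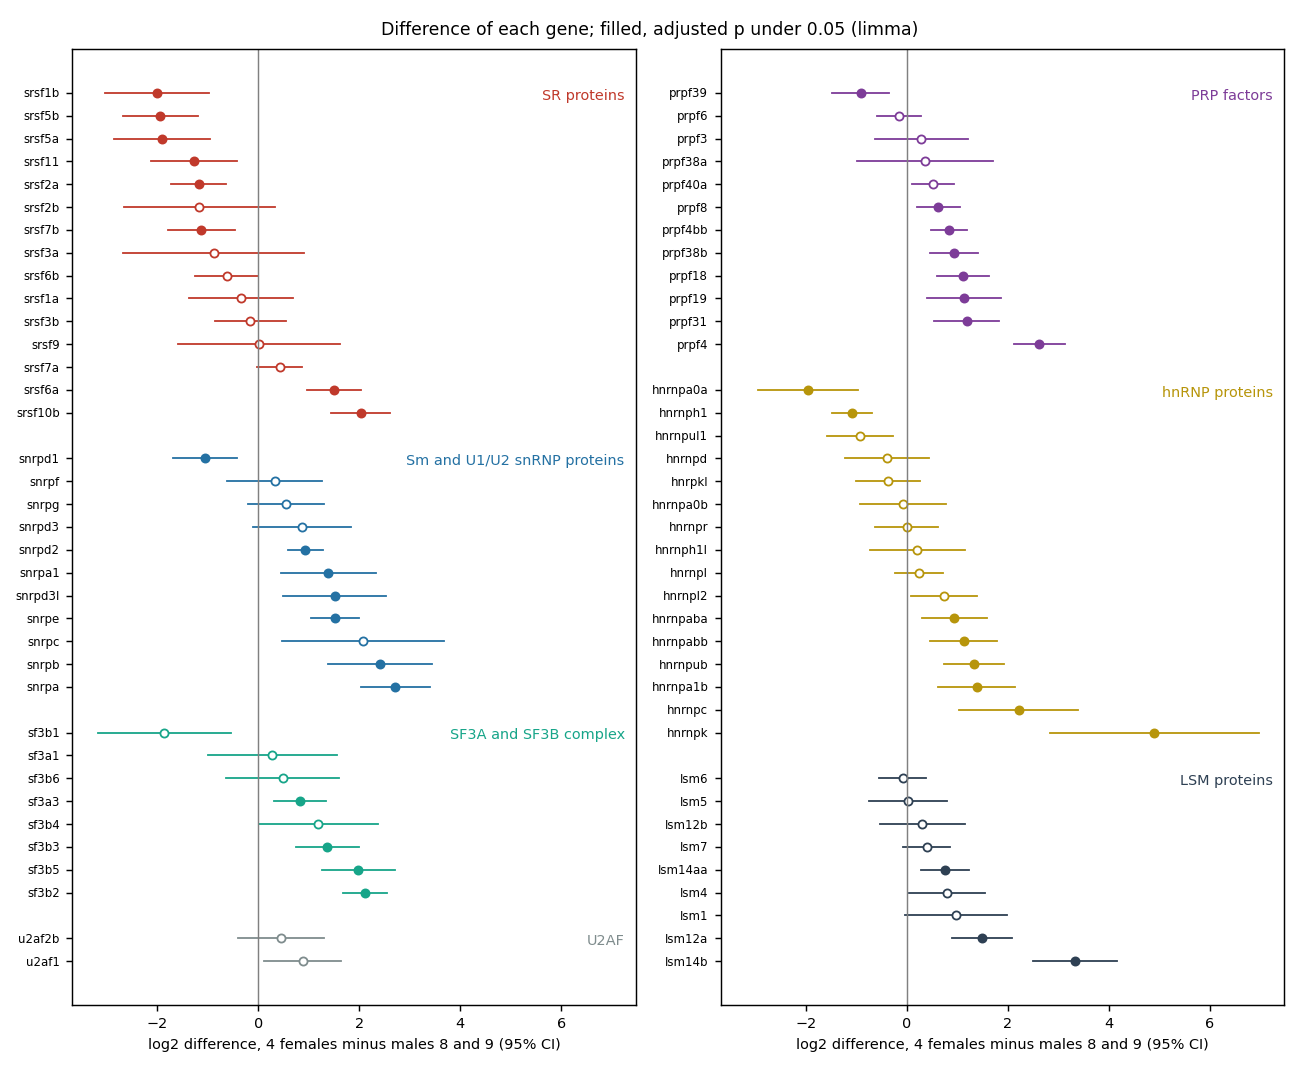
Difference in log2 ratio, 4 females minus males 8 and 9, with its 95% confidence interval (limma) for each of the 73 tested genes, by family; filled points passed an adjusted p of 0.05. SR protein genes lie mostly left of 0 (6 called higher in males), while the Sm and U1/U2 snRNP, SF3, PRP and LSM genes lie mostly to the right.

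Among the Sm and U1/U2 snRNP genes, 6 of 11 were called higher in females and 1 higher in males. The median difference was 1.39. For this and each family below, the shares of all named genes called were 19% higher in females and 11.8% higher in males. The gene snrpa codes for the A protein of the U1 particle, which binds a loop of U1 RNA, and its log2 ratios were -0.67, -0.73, -1.03 and -0.63 in females 4, 7, 8 and 9, -0.94 in the library labelled male 5, and -3.96 and -2.99 in males 8 and 9. Males 8 and 9 lay far below all other fish, and the difference was 2.71 ± 0.29 (log2, SE; adjusted p = 0.00237, limma). Its other probe moved less, by 0.66 (adjusted p = 0.0594, limma), so the size of this difference depends on the probe. The core ring gene snrpb, for SmB, had log2 ratios of -0.52, 0.19, 0.05 and 0.16 in females 4, 7, 8 and 9, -0.12 in the library labelled male 5, and -3.20 and -1.68 in males 8 and 9. The females and the library labelled male 5 lay between -0.52 and 0.19 and both other males lay below, by 2.41 ± 0.43 (log2, SE; adjusted p = 0.0104, limma). For snrpe, the SmE gene, the log2 ratios were 0.56, 0.17, 0.11 and 0.16 in females 4, 7, 8 and 9, 0.48 in the library labelled male 5, and -1.10 and -1.44 in males 8 and 9. Again males 8 and 9 stood alone at the low end, and the difference was 1.52 ± 0.20 (log2, SE; adjusted p = 0.00375, limma).

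Another ring gene, snrpd1 for SmD1, went the other way. It had log2 ratios of -0.53, 0.10, -0.55 and 0.14 in females 4, 7, 8 and 9, -0.60 in the library labelled male 5, and 0.72 and 0.98 in males 8 and 9. Males 8 and 9 lay above all other fish, and the difference was -1.06 ± 0.27 (log2, SE; adjusted p = 0.0312, limma). Under median centring it was at 0.26, below the 0.60 to which all named genes moved there, and it stayed the lowest of the 11 genes. The brightest member after snrpb was snrpd3, for SmD3, which had 1 low value, in male 8 (-1.66), whereas male 9 at -0.09 lay among the females. Its difference was not called, at 0.87 (adjusted p = 0.168, limma).

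In the SF3A and SF3B complexes, which hold the branch site in the U2 snRNP, 4 of 8 genes were called higher in females and none higher in males, with a median difference of 1.01. The subunit gene sf3b2 had log2 ratios of 0.13, 0.47, 0.55 and 0.18 in females 4, 7, 8 and 9, 0.65 in the library labelled male 5, and -1.85 and -1.72 in males 8 and 9. The females and the library labelled male 5 lay within a narrow band and both other males well below it, a difference of 2.11 ± 0.18 (log2, SE; adjusted p = 0.00155, limma). The small subunit gene sf3b5 had log2 ratios of -0.04, -0.60, -0.95 and -0.72 in females 4, 7, 8 and 9, -0.62 in the library labelled male 5, and -2.87 and -2.24 in males 8 and 9. Its difference was 1.98 ± 0.30 (log2, SE, with adjusted p = 0.00625, limma), with no overlap between the females and males 8 and 9. With session as a block, which rests on 1 male, the difference was 1.58. The gene sf3a3 differed by 0.83 (adjusted p = 0.0334, limma) on its brighter probe and by 0.21 (adjusted p = 0.335, limma) on the other. On the brighter probe the difference was 0.50 with session as a block.

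The largest subunit gene, sf3b1, whose product contacts the branch site adenosine, had its highest values in the males instead. It had log2 ratios of 1.43, 0.90, 1.30 and 1.02 in females 4, 7, 8 and 9, 1.16 in the library labelled male 5, and 4.09 and 1.95 in males 8 and 9. Male 8 stood far above every other fish and male 9 just above the females. The difference was -1.86 ± 0.55 (log2, SE; adjusted p = 0.0506, limma), just outside the threshold, and its other probe gave -1.82 (adjusted p = 0.0465, limma), just inside it. The gene sf3a1 showed no call, at 0.28 (adjusted p = 0.738, limma), and its females split by session: 4 and 8 were at -1.07 and -0.83, 7 and 9 at -2.63 and -2.26.

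Of the 12 PRP factor genes, 7 were called higher in females and 1 was called higher in males, the family having a median difference of 0.73. The U4/U6 snRNP gene prpf4 had log2 ratios of -0.23, -0.29, -0.32 and -0.19 in females 4, 7, 8 and 9, -0.30 in the library labelled male 5, and -3.23 and -2.54 in males 8 and 9. The 5 other fish agreed to within 0.13 of each other on the log2 scale, and males 8 and 9 lay far below them, by 2.63 ± 0.21 (log2, SE; adjusted p = 0.00151, limma). The gene prpf18, described above, differed by 1.12 ± 0.21 (log2, SE; adjusted p = 0.0128, limma). For prpf31, another U4/U6 protein, and prpf4bb, a copy of the PRP4 kinase gene, the chosen probes were called, at 1.19 (adjusted p = 0.0219, limma) and 0.83 (adjusted p = 0.0102, limma), and the other probes were not, at 0.50 (adjusted p = 0.0975, limma) and 0.69 (adjusted p = 0.0613, limma). With session as a block, which rests on 1 male, the chosen probes differed by 1.23 and 0.82. The exception in direction was prpf39, a U1-associated factor, which had log2 ratios of 1.07, 0.94, 1.06 and 0.95 in females 4, 7, 8 and 9, 1.02 in the library labelled male 5, and 2.32 and 1.52 in males 8 and 9. Males 8 and 9 had the highest ratios, with a difference of -0.91 ± 0.23 (log2, SE; adjusted p = 0.0331, limma). With session as a block the difference was -0.58, and under median centring it was 0.44, below the 0.60 of all named genes.

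Both U2AF genes tested, u2af1 for the small subunit that reads the AG at the intron end and u2af2b for a copy of the large one, had positive differences that were not called, at 0.88 (adjusted p = 0.0893, limma) and 0.45 (adjusted p = 0.404, limma). For u2af2a, Cy5 was above background in 2 of the 4 females and in neither of males 8 and 9. The detecting females, 7 and 9, were both of session 1, and females 4 and 8 of session 3. The mean of the females thus includes 2 undetected arrays, so no bound on a fold is drawn from it. The fold given further below for lsm14aa compares the mean of the bright group with the higher of 2 values. These are the dimmest detected signal and the probe's own value on each dim array.

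The calls of the SR protein genes ran mostly toward males: 6 of 15 were higher in males, 2 were higher in females, and the median difference was -0.89. The gene srsf1b is a zebrafish copy of the gene for SRSF1, an activator of exons with purine-rich enhancers. It had log2 ratios of -0.13, 0.70, -0.89 and 0.36 in females 4, 7, 8 and 9, -0.67 in the library labelled male 5, and 2.05 and 1.97 in males 8 and 9. Both males stood well above all females and the library labelled male 5, with a difference of -2.001 ± 0.43 (log2, SE; adjusted p = 0.0184, limma). The other probe of this gene gave 0.53 (adjusted p = 0.563, limma), so its probes differ in sign. The copies srsf5a and srsf5b code for SRSF5, another exon-binding SR protein. The gene srsf5a had log2 ratios of 0.62, 0.91, -0.21 and 1.23 in females 4, 7, 8 and 9, -0.25 in the library labelled male 5, and 2.74 and 2.34 in males 8 and 9. The lowest male was above the highest female by 1.11, and the difference was -1.91 ± 0.40 (log2, SE; adjusted p = 0.0171, limma).

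Its copy srsf5b had log2 ratios of -0.61, -0.36, -0.91 and 0.11 in females 4, 7, 8 and 9, -1.13 in the library labelled male 5, and 1.76 and 1.24 in males 8 and 9. This probe separated males 8 and 9 from all other fish, with a difference of -1.94 ± 0.31 (log2, SE; adjusted p = 0.00723, limma), while a second, dimmer probe gave -0.04 (adjusted p = 0.931, limma). For srsf2a, a gene for the exon activator SRSF2, the log2 ratios were -0.39, 0.07, -0.41 and 0.17 in females 4, 7, 8 and 9, -0.20 in the library labelled male 5, and 1.16 and 0.92 in males 8 and 9. Males 8 and 9 lay above all other fish here too, and the difference was -1.18 ± 0.23 (log2, SE; adjusted p = 0.0133, limma). The genes srsf11 and srsf7b were also called higher in males, at -1.28 (adjusted p = 0.0423, limma) and -1.13 (adjusted p = 0.0287, limma). With session as a block, which rests on 1 male, srsf2a and srsf5b differed by -0.80 and -1.37. The genes srsf1b, srsf5a, srsf11 and srsf7b differed by -1.43, -1.27, -0.59 and -1.16 there. A second probe of srsf3a was called, at -1.21 (adjusted p = 0.0130, limma), where the brighter probe chosen for the gene was not, at -0.89 (adjusted p = 0.432, limma).

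The SR genes called higher in females were srsf10b and srsf6a, the latter the brightest of the family. The gene srsf10b, whose product in mammals represses splicing when dephosphorylated after heat shock, had log2 ratios of -0.01, 0.09, 0.30 and 0.33 in females 4, 7, 8 and 9, 0.46 in the library labelled male 5, and -2.23 and -1.47 in males 8 and 9. Males 8 and 9 lay far below the other 5 fish, which agreed to within 0.47, and the difference was 2.03 ± 0.24 (log2, SE; adjusted p = 0.00320, limma). The gene srsf6a had log2 ratios of 0.82, 0.35, 0.54 and 0.33 in females 4, 7, 8 and 9, 0.87 in the library labelled male 5, and -0.74 and -1.25 in males 8 and 9, and the difference was 1.51 ± 0.22 (log2, SE; adjusted p = 0.00556, limma). Its duplicate srsf6b, looked up after these values were seen, was at -0.62 (adjusted p = 0.131, limma). The difference between the duplicates was not tested. The second brightest SR gene, srsf2b, was high in male 9 only (3.14), with male 8 at 1.06 inside the female range of 0.12 to 1.48, and was not called, at -1.17 (adjusted p = 0.220, limma).

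The sign of the SR values depended on the scaling of the arrays, which moved all other genes too. Their median difference was -0.71 in the Cy5 channel alone, -0.83 with the scanner's processed signals and -0.59 with scan session as a block, but 0.41 under median centring, where none of them was called. Relative to the median of all named genes, which moved from 0.06 to 0.60, the SR median lay at -0.94 with loess and at -0.20 under median centring. Under median centring srsf2a was at 0.14 and srsf7b at 0.18, both below 0.60, while srsf1b stayed at -0.83, srsf5b at -0.53 and srsf5a at -0.56. In that setting the medians of the other 6 families ran from 1.40 to 2.68, so the SR genes stayed lowest of the 7 families, as they did in all 5 settings named here. That ordering describes these arrays and was not tested.

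**Figure D3:**
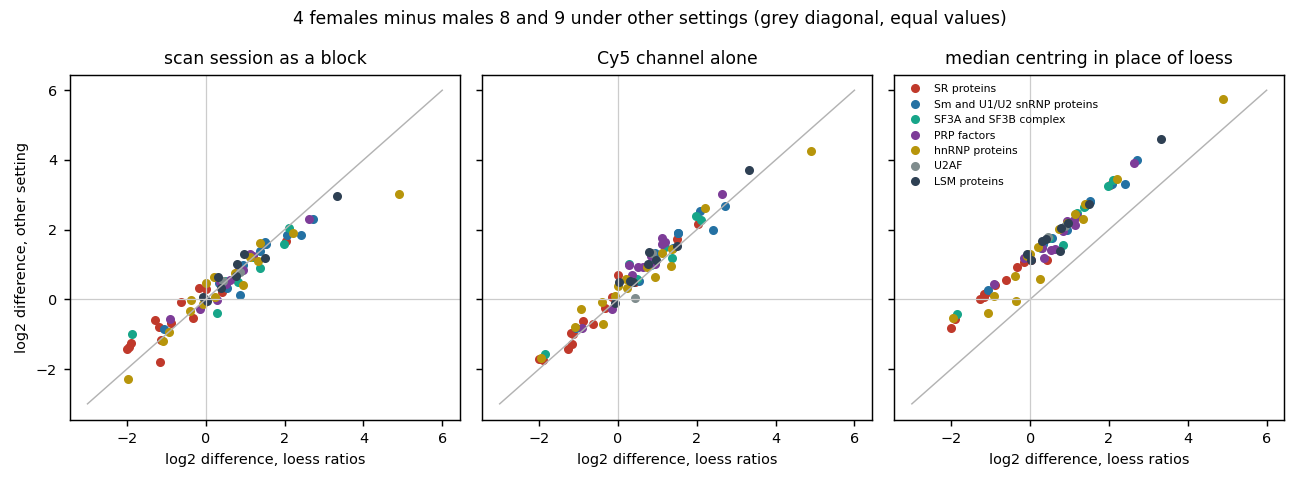
Log2 difference, 4 females minus males 8 and 9, of each of the 73 genes under 3 other settings (vertical) against the loess ratios (horizontal), coloured by family; the grey diagonal marks equal values. Session block and Cy5 alone lie along the diagonal, while median centring lifts nearly all genes, taking the SR median from -0.89 to 0.41 and the median of the set from 0.52 to 1.67.

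Of the 16 hnRNP genes, 6 (37.5%) were called higher in females and 2 (12.5%) higher in males. The share higher in males was near the 11.8% of all named genes. The widest difference of the whole set was in hnrnpk, whose product binds cytosine-rich RNA and DNA and which had the brightest probe of the set. It had log2 ratios of 0.53, -1.26, 0.75 and 0.50 in females 4, 7, 8 and 9, 0.80 in the library labelled male 5, and -6.14 and -3.41 in males 8 and 9. The spot was saturated in both channels in females 7 and 9 and in Cy3 in males 8 and 9, the only saturated spot among the 74 genes, so the ratios of these 4 fish are not measured levels and the order among the females is not known. Males 8 and 9 read far below every female, with a difference of 4.91 ± 0.86 (log2, SE; adjusted p = 0.00971, limma) whose size is not settled. In session 1, where the arrays can be set side by side, the median Cy5 signal was at the scanner's limit of 65528 in females 7 and 9 and at 1320.5 in male 9. With scan session as a block, which rests on 1 male, the difference was 3.04. The gene hnrnpc, for a protein that binds uridine tracts in nascent RNA, had log2 ratios of -1.20, -0.62, -1.63 and -0.48 in females 4, 7, 8 and 9, -1.30 in the library labelled male 5, and -3.95 and -2.44 in males 8 and 9. No female overlapped males 8 and 9, and the difference was 2.21 ± 0.49 (log2, SE; adjusted p = 0.0213, limma). The scaffold gene hnrnpub, second in brightness, was higher in females by 1.33 ± 0.25 (log2, SE; adjusted p = 0.0116, limma).

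Higher in males were hnrnpa0a and hnrnph1. The gene hnrnpa0a, for an A type hnRNP that binds AU-rich mRNA elements, had log2 ratios of 2.85, 1.45, 1.87 and 1.46 in females 4, 7, 8 and 9, 1.84 in the library labelled male 5, and 4.01 and 3.73 in males 8 and 9. Males 8 and 9 had the highest ratios of the 7 fish, with a difference of -1.96 ± 0.41 (log2, SE; adjusted p = 0.0174, limma). Its other probes gave -1.15 (adjusted p = 0.0106, limma) and -0.70 (adjusted p = 0.102, limma). For hnrnph1, given above fish by fish, the difference without the library labelled male 5 was -1.08 ± 0.17 (log2, SE; adjusted p = 0.00636, limma). Under median centring both kept their sign, at -0.53 and -0.39, without a call.

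Among the 9 LSM genes, 3 were called higher in females and none in males. All 3 were lsm12 or lsm14 genes, which are not known as spliceosome parts, and no ring gene was called on its chosen probe. By far the largest difference was in lsm14b, whose product is known in mouse and frog oocytes as part of mRNA-protein granules that keep maternal mRNA silent. It had log2 ratios of 0.65, 0.12, 1.31 and 0.23 in females 4, 7, 8 and 9, 1.15 in the library labelled male 5, and -2.73 and -2.78 in males 8 and 9. Males 8 and 9 were nearly equal and lay below all other fish by a wide margin, a difference of 3.33 ± 0.34 (log2, SE; adjusted p = 0.00226, limma). The difference was 2.95 with session as a block, which rests on 1 male. It was 4.07 with array position as a block, which rests on 1 female. Under median centring it was 4.61 (adjusted p = 0.0164, limma), where all named genes moved to 0.60. The brightest LSM gene, lsm12a, differed by 1.496 ± 0.25 (log2, SE; adjusted p = 0.00821, limma). For lsm14aa, a paralog of lsm14b, Cy5 was above background in all 4 females and in neither of males 8 and 9, which bounds it at least 1.65-fold higher in females (adjusted p of the fit = 0.0347, limma). With session as a block the difference of lsm14aa was 0.67, and its second probe was not called, at 0.63 (adjusted p = 0.109, limma). The ring genes lsm4 and lsm5 were not called on the chosen probe, at 0.79 (adjusted p = 0.112, limma) and 0.02 (adjusted p = 0.967, limma), but were called on their second one, at 1.13 (adjusted p = 0.0126, limma) and 0.64 (adjusted p = 0.0220, limma).

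**Figure D4:**
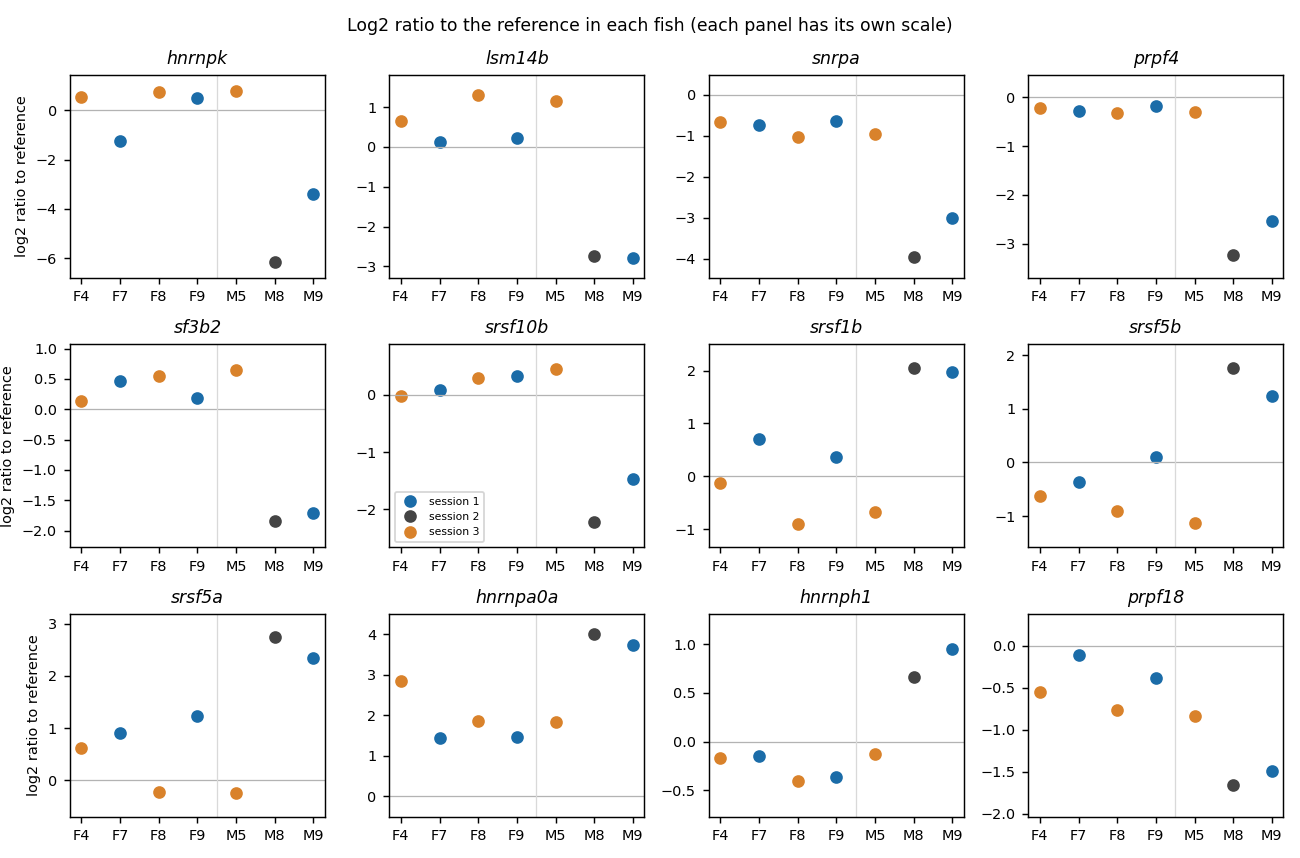
Log2 ratio to the reference of 12 genes in each fish, coloured by scan session, each panel on its own scale. In the panels from hnrnpk to srsf10b males 8 and 9 lie below all other fish, in those from srsf1b to hnrnph1 above them, and the library labelled male 5 lies nearer to the females than to males 8 and 9 in every panel; the hnrnpk spot was saturated on 4 arrays.

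The library labelled male 5 lay closer to the females than to males 8 and 9 in all 38 genes called, and within the range of the 4 females in 24 of them. Over all called probes the same held for 99.4%, with 59.4% within the female range, so the splicing genes showed the same pattern as the array at large. In a fit of sessions 1 and 3 with an interaction term, the difference between females and the session's male passed an adjusted p of 0.05 for unequal size in 11 of the 73 genes, beside 7.22% of all probes. Each session has 1 male there, which is assumed to vary like the females, from which alone the spread comes. Since the library labelled male 5 is the only male of session 3, session and library cannot be told apart.

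Marker genes of whole tissues moved with the same fish. The egg coat and oocyte list was called higher in females in 23 of 23 genes. The library labelled male 5 was set aside on these same genes, so this count is no separate support. With all 7 fish none of the 23 was called by limma. There 8 had an unadjusted p under 0.05, beside 9.5% of all named genes. All 23 were above background in every female and in the library labelled male 5, against 18 in male 8 and 22 in male 9. The cell cycle list was called higher in females in 16 of 19 genes and in males in 2, with 0.357 to 0.462% of the Cy5 signal in females, 0.490% in the library labelled male 5, and 0.0460 and 0.0532% in males 8 and 9. Called higher in males 8 and 9 were 9 of 11 testis genes, 4 of 15 skeletal muscle genes, 4 of 8 liver genes, 4 of 5 red blood cell genes and 4 of 10 brain and nerve genes. The other genes of these lists were not called. Of all named genes, 19% were called higher in females and 11.8% higher in males. Muscle genes took 0.327 to 0.971% of the Cy5 signal in females and 1.98 and 1.53% in males 8 and 9. In whole animals, fewer cells of a type and less RNA per cell cannot be told apart, and the part of these tissues in the splicing gene values was not tested.

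Other genes of splicing and nuclear RNA handling, outside the symbol patterns, were called in both directions. Of 130 tested, 37 (28.5%) were called higher in females and 14 (10.8%) in males, beside 19% and 11.8% of all named genes and 13.2% and 12.1% of all probes, the median difference being 0.47. Over all 7 fish none was called by limma, 17 (13.1%) had an unadjusted p under 0.05, beside 9.5% of all named genes and 6.72% of all probes, and the median difference was 0.27. Highest in females were the mRNA export helicase gene ddx39ab at 3.34 (adjusted p = 0.00210), the export complex genes thoc3 at 2.499 (adjusted p = 0.00155) and alyref at 2.39 (adjusted p = 0.00104), and phax, for the export adaptor of small nuclear RNAs, at 2.26 (adjusted p = 0.00210, all limma). Highest in males were rbfox1, a splicing regulator of nerve and muscle, at -2.63 (adjusted p = 0.00168), the U4/U6 recycling factor gene sart3 at -2.31 (adjusted p = 0.0288), ewsr1a at -2.20 (adjusted p = 0.00251) and the SR protein kinase gene clk2a at -2.01 (adjusted p = 0.0210, all limma). With session as a block, which rests on 1 male, ddx39ab, thoc3, alyref and phax differed by 2.75, 2.52, 2.29 and 1.89. There rbfox1, sart3, ewsr1a and clk2a differed by -2.28, -1.23, -1.76 and -1.21. For sart3, female 9 at 1.66 lay near male 9 at 2.17, and Cy5 alone gave -1.91 (adjusted p = 0.149, limma). Under median centring 7 of the 130 were called, all higher in females, beside 4.28% of all named genes called higher in females and 0.17% in males.

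The splicing factor genes also varied between siblings of a sex. The median SD of the log2 ratio pooled within the labelled sexes was 0.55 for the 73 genes, against 0.35 for all probes and 0.40 for all named genes. The widest were hnrnpk (SD 2.32), lsm14b (1.49), srsf5a (1.13), srsf1b (1.12) and srsf3a (1.099), and the values of the library labelled male 5 are part of each of these SDs. For hnrnpk the saturated spots are part of it too. Among the females alone the median SD was 0.38, against 0.23 for all probes.

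Part of the spread among females followed the scan session. Both session 3 females lay below both session 1 females in 41 of the 73 genes (56.2%), beside 35.2% of all probes and 39.2% of all named genes. The females of session 3 minus those of session 1 had a median of -0.41 in the ratio and of 0.08 in the normalized Cy5 signal. The normalized Cy3 signal of the common reference, over the 3 arrays of each session, differed by 0.24. These 3 medians were -0.11, 0.01 and 0.07 over all named genes and -0.07, -0.03 and -0.04 over all probes. The clearest case was srsf3a, for the small SR protein SRSF3, which had log2 ratios of -2.05, 0.09, -2.02 and -0.43 in females 4, 7, 8 and 9, -1.62 in the library labelled male 5, and -0.95 and 0.52 in males 8 and 9. Its ratio was lower in session 3 females by 1.87 on the log2 scale (-1.87), its Cy5 signal differed by 0.28 and the reference signal by 2.07. For srsf3a the difference between sisters of different sessions thus came with a difference in the reference channel, whose part in it was not tested.

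**Figure D5:**
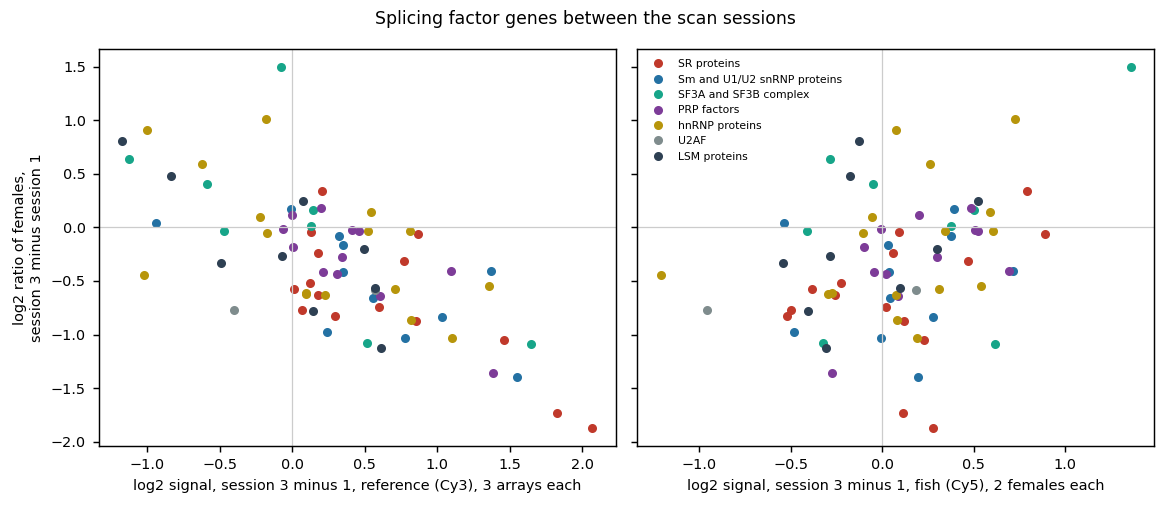
Session 3 minus session 1 for each of the 73 genes: the log2 ratio of the females (vertical) against the reference signal (left) and the females' own Cy5 signal (right), coloured by family. The ratio contains the reference signal by construction; the gene at the lower right of the left panel is srsf3a, at a reference change of 2.07 and a ratio change of -1.87.

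Where a gene had more than 1 tested probe, the probes often differed. Of 29 such genes, 3 were called on all probes, 13 on none and 13 on some, and in 6 genes the probes differed in sign. No gene had probes called in opposite directions. Besides srsf1b, the genes whose probes differed in sign were hnrnpl, hnrnpr, hnrnpul1, sf3a1 and srsf1a, none of them called on any probe.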

How the data were processed

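Whole-animal RNA of 7 fish was measured on 7 Agilent 2-colour arrays. Per the file headers, the authors extracted spots with Agilent Feature Extraction 10.5.1.1, and the deposited intensities are linear signals and local backgrounds of both channels. The deposited value table holds log10 ratios that equalled the scanner's at all 45220 spots (column medians 0). The labels give total RNA, though their protocol text describes DNA labelling. The design named mean spot signals, and the deposited median signals were used. Background was corrected with normexp (offset 50) and the ratios normalized by loess within arrays, without scaling between arrays. Log2 values of Cy5 or Cy3 alone, and their correlations, were instead quantile-normalized across the arrays. The fold of lsm14aa used loess with Aquantile scaling between arrays. Of 43603 probes, 22705 had Cy5 well above background on at least 3 arrays and were tested with limma 3.58.1 in R 4.3.3 (moderated fit, females minus males, two-sided, Benjamini-Hochberg over all tested probes, threshold 0.05), after a check on simulated data. Fish were grouped by labelled sex, with all 7 and without the library labelled male 5. Probes were named by RefSeq accession (GRCz12tu gene table, 38.0% named); the array was designed on an older build, so no coordinates are given. Probe sequences were not used here. The number of arrays limits the precision.

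The genes, families, marker lists and tests were chosen with earlier results of these data known. Genes named in the text are, by rule, the 10 genes with the largest called difference each way, the 2 brightest per family, those whose probes differ in call or sign, the 5 with the largest SD, those separating all 7 fish, those above background in 1 group only, and 4 each way of the other splicing genes. The mean Cy5 signal that chose the probe is the scanner's processed signal.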

Additional observations from a re-analysis of the deposited data

Results flagged for a closer look

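For 8 of the named genes an interaction term for the difference between females and the male of a session, session 1 against session 3, passed an adjusted p of 0.05 (limma, over 22684 probes). Each session has 1 male in this fit, which is assumed to vary like the females, and most of these genes were named for large differences that include male 9. The session 1 difference minus the session 3 difference was 3.12 for lsm14b, 2.35 for sf3b2, 2.28 for prpf4, 2.22 for snrpa, 2.01 for hnrnpc, 1.99 for srsf10b, 1.78 for srsf6a and 1.34 for lsm12a on the log2 scale. The only male of session 3 is the library labelled male 5, whose egg coat genes lay in the female range, and the only male of session 1 is male 9, so session and library cannot be told apart.

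Single fish stood apart from the other females in 2 of 44 groups examined with Dixon's criterion, which chance alone flags in about 1 of 20 groups. The log2 ratio of hnrnpk was -1.26 in female 7, where both channels were saturated, as they were in female 9, so its distance from the other females is not a measured one, and that of snrpe was 0.56 in female 4, against 0.11 to 0.17 in the other females.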

How the results depend on the processing

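Females against males 8 and 9 gave 5757 called probes, 38 called splicing factor genes and a median difference of 0.52. Median centring gave 706 probes, 6 genes and 1.67, the scanner's processed signals 9447 probes, 39 genes and 1.19, and the deposited log ratios 9506 probes, 39 genes and 1.19. Added after seeing the data, Cy5 alone gave 11239 probes, 55 genes and 0.92, and array position as a block 2305 probes and 9 genes. Leaving out each fish gave 3432 to 4804 probes, 16 to 30 genes and medians of 0.44 to 0.86, with the lowest counts without male 8. Under median centring prpf39 turned to 0.44, snrpd1 to 0.26, srsf2a to 0.14 and srsf7b to 0.18, all below the 0.60 of all named genes there; the cause was not tested. With all 7 fish, 0 probes and 0 genes were called by limma, with 1525 probes and 12 genes at an unadjusted p under 0.05. Within session 1 there were 6684 probes and 39 genes, whose single male is assumed to have the spread of the other groups. Leaving out each fish gave 0 to 5757 probes, 0 to 38 genes and medians of 0.20 to 0.52, where the highest counts are those without male 5. The 7-fish median of 0.39 became 1.30 with median centring, 0.80 with processed signals, 0.80 with the deposited table and -0.12 within session 3, where the lone male is the library labelled male 5.

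The replicate numbers 8 and 9 occur in both sexes but name different animals. Same-numbered fish deviated from their group means with r of -0.133 (fish 8) and 0.427 (fish 9, both of session 1). With so few pairs, these values cannot settle whether the numbers pair the fish. With the replicate block, 4084 probes and 29 genes were called in the 7-fish comparison, which there rests on fish 8 and 9 alone, and 24 of the 29 were among the 38. For the 37 named genes called without male 5 (29 splicing factor genes and 8 other genes of splicing) and the 4 that separated all 7 fish, 502 values kept direction and side of the threshold, 150 lost the call, 6 gained one and 4 reversed. Named genes without a call are not in this tally. The settings tallied are not all separate checks. The deposited ratios come from the same scanner software as the processed signals. The session block gives the same differences as session 1 alone. Both rest on 1 male, and the array position block rests on 1 female, so calls lost there are weak evidence. The small number of fish and the dim arrays of session 3 limit all counts.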
